A study of Mus musculus with 200 samples.

Results

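Microglia, the resident macrophages of the brain, depend on signals that reach them through 2 receptor systems. The genes for these signals were followed in mouse brain after closed-head injury (CHI). They are the ligands Csf1 and Il34 with their shared receptor Csf1r, and the ligands Tgfb1, Tgfb2 and Tgfb3 with the receptor subunits Tgfbr1 and Tgfbr2. The 8 genes were taken by symbol from a table of 56941 genes, and all 8 passed the filter on low counts in every comparison of CHI with sham.

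Bulk RNA sequencing was performed on one hemisphere per mouse from 200 mice of both sexes that had received CHI or sham surgery and were collected 9, 24 or 72 h later. C57BL/6J mice (43 CHI and 18 sham, 4.4 to 6.8 months old) carried no label of a modified gene. The other strains were labelled IL-1R1 gKO (37 CHI and 18 sham, 3.3 to 7.4 months), IL-1R1 eRestore (33 and 17, 4.5 to 7.4 months) and IL-1R1 nRestore (20 and 14, 3.3 to 7.67 months). The 24 groups held 4 to 15 mice each, and no group shared its mice with another. The sources used here do not spell out the strain names, nor the promoter or cell type behind the restored strains. The authors describe perfusion with saline before the tissue was frozen for the C57BL/6J mice of their published study. A whole hemisphere also holds tissue far from the injured area, and the dilution of that area was not measured.

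Total estimated counts ranged from 14857985 to 57355676 per mouse (median 20258936). Il1r1, the gene named by the strain labels, was measured on the counts-per-million scale (CPM) at 5.77 ± 2.01 CPM (mean ± SD, n = 61) in C57BL/6J mice and at 10.2 ± 2.48 CPM (n = 55) in the mice labelled IL-1R1 gKO. Its reads therefore went against a loss of the transcript in the mice labelled IL-1R1 gKO, and whether they came from a modified transcript was not tested. All 10 microglia markers were read in every mouse. The markers of blood monocytes and neutrophils were near 0, with median counts per mouse from 0 (Ly6g) to 6 (Ccr2), and Ly6g had a count above 0 in 5 of 200 mice. The summed CPM of 4 choroid plexus markers (Ttr, Kl, Folr1 and Clic6) ran from 9.00 to 3479 in sham mice at 9 h, and 29 of the 200 mice were over 100 CPM. The mice of the 9 h groups came from other experiments than those of the 24 and 72 h groups. Differences between 9 h and later, in the level of a gene or in the effect of CHI, thus cannot be told apart from the experiment. Each CHI group was therefore compared with sham mice of the same time.

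CSF1 and IL-34 are secreted proteins that bind the same receptor tyrosine kinase, CSF1R, and microglia need that receptor to survive. In the brain, IL-34 is made mainly by neurons, and CSF1 by glia. TGF-beta proteins are secreted in a latent form, are released by integrins and other proteins at the cell surface, and signal through a complex of TGFBR2 and TGFBR1 to SMAD transcription factors; microglia keep their adult identity through this pathway.

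In GRCm39 with the GENCODE vM39 annotation, the 8 genes are protein-coding and lie apart from each other (the position of Csf1r is given with its values). Csf1 (ENSMUSG00000014599) is at chr3:107648364-107667806 on the minus strand and Il34 (ENSMUSG00000031750) at chr8:111423928-111532584 on the minus strand. Tgfb1 (ENSMUSG00000002603) is at chr7:25386390-25404506 on the plus strand, Tgfb2 (ENSMUSG00000039239) at chr1:186354985-186438294 on the minus strand, and Tgfb3 (ENSMUSG00000021253) at chr12:86102756-86126301 on the minus strand. Tgfbr1 (ENSMUSG00000007613) is at chr4:47353134-47414931 on the plus strand and Tgfbr2 (ENSMUSG00000032440) at chr9:115913361-116004800 on the minus strand. Genes on the opposite strand overlap 7 of the 8, all but Tgfb1. Among these are Vac14 and Mtss2 over Il34, Hmgxb3 over Csf1r and Ttll5 over Tgfb3. The strandedness of the counting is not given in the sources used here, and without it reads in the shared stretches cannot be told apart.

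Csf1 and Tgfb1 were the ligands with a higher level after CHI at 72 h (below), and the sequence just upstream of each is shown for that reason. The sequences come from RefSeq (GRCm38.p6), where 5 of the 8 genes had an entry, and each matched GRCm39 at 1 place. They stop at the first base of an annotated exon and are written 5′ to 3′ on the strand of the gene, with matches to the NF-kB consensus in capitals. The Csf1 stretch of 229 bases is chr3:107667807-107668035 (minus strand, 55.9% G or C), and the Tgfb1 stretch of 213 bases is chr7:25386177-25386389 (plus strand, 74.6% G or C).
Csf1: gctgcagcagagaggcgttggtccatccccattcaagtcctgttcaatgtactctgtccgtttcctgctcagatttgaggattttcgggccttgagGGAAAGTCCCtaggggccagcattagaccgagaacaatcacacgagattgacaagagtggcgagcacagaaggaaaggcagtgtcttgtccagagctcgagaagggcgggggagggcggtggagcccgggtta
Tgfb1: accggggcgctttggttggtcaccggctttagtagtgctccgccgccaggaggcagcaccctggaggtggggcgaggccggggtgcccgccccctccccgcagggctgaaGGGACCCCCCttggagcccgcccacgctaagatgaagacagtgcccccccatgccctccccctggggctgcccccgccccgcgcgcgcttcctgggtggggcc
Both strands were searched in the 250 bases before the start site, which hold more bases than the stretches printed above. The NF-kB consensus matched once before each of Csf1 and Tgfb1, and 5.00% of 32851 promoters of the same length hold a match. It matched in no entry of Tgfb2, Tgfbr1 or Tgfbr2. The GC box GGGCGG (32.7% of promoters) matched 2 times before Csf1. Before Tgfb1 it matched 5 times in the 250 bases, and not all of these matches lie in the stretch printed. The AP-1 motif TGANTCA (6.75% of promoters), the SMAD motif CAGAC (42.2%) and the PU.1 motif GAGGAAGT (2.44%) matched before neither of these genes. A match describes the letters and is not a binding site.

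Levels of different genes were compared per length on the transcripts-per-million scale (TPM). Csf1r (median 59.6 TPM over 200 mice) and Il34 (54.6 TPM) stood highest, and their order was not fixed, with Csf1r above Il34 in 124 mice. Il34 was above Tgfbr1 (15.0 TPM) in all 200 mice. Csf1 followed at 9.65 TPM, and was above Tgfbr1 in 5 mice. Tgfb3 (8.38 TPM) and Tgfbr2 (8.25 TPM) were not separated, since Tgfb3 was the higher in 98 of 200 mice. Tgfb2 had a median of 5.09 TPM and Tgfb1 of 4.50 TPM, and Tgfb1 was the higher in 56 mice. Tgfb1 was thus the lowest of the 3 TGF-beta ligands and the least deeply read gene, with a median of 95 estimated counts and a lowest of 44. The TPM of Csf1r ran from 28.6 to 125.7 while its CPM ran only from 57.0 to 117.97.

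**Figure D1:**
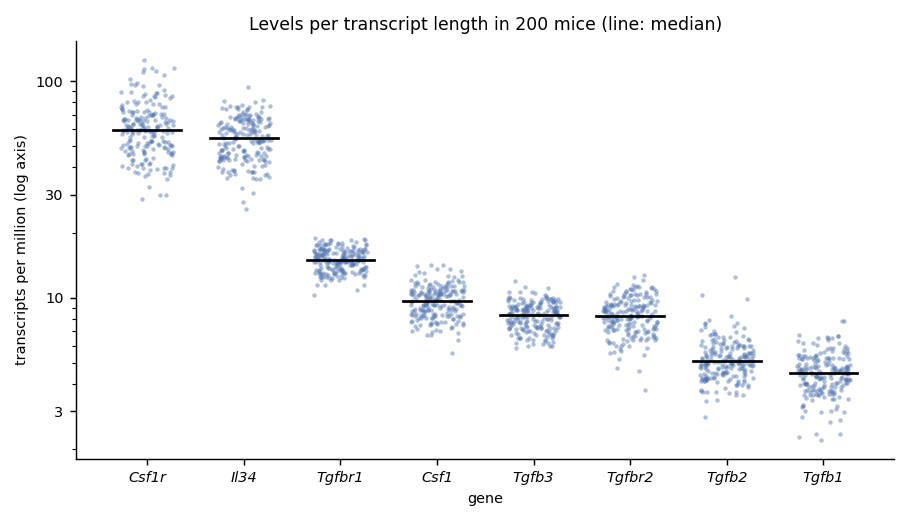
TPM (log axis) of the 8 genes in each of 200 mice (points), with the median as a line and genes ordered by it. Csf1r and Il34 lie near 55 to 60 TPM, and Il34 lies above Tgfbr1 in all 200 mice, while the 3 TGF-beta ligands have medians from 4.50 to 8.38 TPM.

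The first comparison asked how the ligands and receptors of the CSF1 system differed between CHI and sham mice. With all 4 strains together (46 CHI and 22 sham mice at 9 h, 43 and 22 at 24 h, 44 and 23 at 72 h), Il34 and Csf1r fell at 9 h, no gene of the 8 passed the test at 24 h, and Csf1r and Csf1 rose at 72 h. The test was edgeR's quasi-likelihood F test with Benjamini-Hochberg adjustment over all genes tested, and a gene was called at an adjusted p under 0.05.

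Il34 was measured at 9 h between 25.2 and 39.0 CPM in sham mice (median 32.3) and between 20.4 and 35.3 CPM in CHI mice (median 28.5). The groups overlapped, with 39 of the 46 CHI mice at or below the sham median and 5 below every sham mouse. The log2 fold change was -0.20 (SE 0.04, adjusted p = 6.42e-05), a fall of 12.9% in level. At 24 h the medians were 34.5 CPM in sham and 32.4 CPM in CHI mice, with a log2 fold change of -0.08 (SE 0.03) and an adjusted p of 0.213. By 72 h the sign was the opposite, with medians of 31.6 CPM in sham and 33.6 CPM in CHI mice and a log2 fold change of 0.08 (SE 0.03, adjusted p = 0.422). The difference between the effects at 9 and 72 h was itself past the threshold, at -0.27 on the log2 scale (SE 0.05, adjusted p = 4.75e-06), while that between 9 and 24 h was -0.12 (SE 0.05, adjusted p = 0.120).

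Csf1r (ENSMUSG00000024621, chr18:61229714-61266535 on the plus strand) encodes the receptor for both ligands and in healthy brain is a microglial gene. It lay at 9 h between 66.7 and 117.97 CPM in sham mice (median 88.8) and between 57.0 and 114 CPM in CHI mice (median 80.6). The groups overlapped widely, with 4 CHI mice below every sham mouse. The log2 fold change was -0.15 (SE 0.05, adjusted p = 0.0178). At 24 h the medians were 79.9 CPM in sham and 80.0 CPM in CHI mice, and the log2 fold change of 0.05 (SE 0.03) had an adjusted p of 0.555. At 72 h sham mice ranged from 65.5 to 94.5 CPM (median 80.6) and CHI mice from 77.6 to 117 CPM (median 92.9). Of the 44 CHI mice, 43 were above the sham median and 16 above every sham mouse. The rise was 0.18 on the log2 scale (SE 0.03, adjusted p = 0.000185), or 13.6%. The effect at 9 h was lower than that at 24 h by 0.18 on the log2 scale (SE 0.06, adjusted p = 0.0228), and lower than that at 72 h by 0.33 (SE 0.05, adjusted p = 1.67e-06). With gene-length offsets in DESeq2, Csf1r kept both directions but neither call, at -0.24 with an adjusted p of 0.213 at 9 h and 0.18 with an adjusted p of 0.399 at 72 h. The call at 9 h was also lost without the C57BL/6J mice (-0.12, adjusted p = 0.109) and without the mice labelled IL-1R1 gKO (-0.10, adjusted p = 0.158).

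Csf1 lay at 9 h between 15.8 and 23.0 CPM in sham mice (median 18.9) and between 16.3 and 27.0 CPM in CHI mice (median 20.2). Although 11 CHI mice were above every sham mouse, the log2 fold change of 0.11 (SE 0.05) had an adjusted p of 0.0650. At 24 h the medians were 18.8 CPM in sham and 18.1 CPM in CHI mice (log2 fold change 0.05, SE 0.04, adjusted p = 0.670). At 72 h sham mice ranged from 13.6 to 25.1 CPM (median 18.1) and CHI mice from 15.9 to 27.0 CPM (median 21.3). The groups overlapped, and 40 of 44 CHI mice were above the sham median. Csf1 rose by 0.20 on the log2 scale (SE 0.05, adjusted p = 0.00919), or by 15.1%. That call was lost without the C57BL/6J mice (0.16, adjusted p = 0.590) and without the IL-1R1 nRestore mice (0.18, adjusted p = 0.149).

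Of the TGF-beta ligands, Tgfb1 rose at 72 h, and neither Tgfb2 nor Tgfb3 passed the test at any time. At 72 h Tgfb1 ranged from 2.64 to 5.12 CPM in sham mice (median 4.00) and from 2.66 to 7.55 CPM in CHI mice (median 4.76). Of the 44 CHI mice, 39 were above the sham median and 17 above every sham mouse, while the lowest CHI mouse was level with the lowest sham mouse. The log2 fold change was 0.29 (SE 0.07, adjusted p = 0.0302), or 22.1%. The call was lost when any one of the 4 strains was left out, with adjusted p-values from 0.140 to 0.175 and log2 fold changes from 0.28 to 0.30. At 9 h the medians of Tgfb1 were 4.46 CPM in sham and 4.34 CPM in CHI mice (log2 fold change 0.03, SE 0.07, adjusted p = 0.766), and at 24 h they were 4.08 and 4.39 CPM (0.06, SE 0.07, adjusted p = 0.746).

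Tgfb2 lay at 9 h from 9.16 to 27.7 CPM in sham mice (median 12.8) and from 7.80 to 32.3 CPM in CHI mice (median 12.9). Its log2 fold changes were 0.00 (SE 0.10) at 9 h, 0.05 (SE 0.06) at 24 h and 0.08 (SE 0.05) at 72 h, with adjusted p-values of 0.999, 0.716 and 0.775. The 95% interval at 9 h ran from -0.20 to 0.20. Of the 10 mice with the highest Tgfb2, 7 were over 100 CPM in the choroid plexus markers. Over the 200 mice, the residuals of Tgfb2 and of the choroid plexus sum after removing group means had a Pearson r of 0.42, the highest of the 8 genes, whose other values ran from -0.25 to 0.18. Whether choroid plexus RNA in the sample took part in the spread of Tgfb2 was not tested.

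Tgfb3 had medians of 13.4 CPM in sham and 13.1 CPM in CHI mice at 9 h, 15.0 and 14.4 CPM at 24 h, and 14.2 and 14.5 CPM at 72 h. The groups overlapped at each time. Its log2 fold changes were -0.07, -0.06 and 0.03 (SE 0.04 each), with adjusted p-values of 0.212, 0.497 and 0.930.

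Among the TGF-beta receptor subunits, Tgfbr2, which binds the ligand, rose at 72 h. Sham mice ranged from 12.9 to 24.5 CPM (median 20.7) and CHI mice from 18.2 to 28.4 CPM (median 22.9), so that 10 CHI mice were above every sham mouse and 36 of 44 above the sham median. The log2 fold change was 0.19 (SE 0.04, adjusted p = 0.0143), or 13.8%. The call was lost without the C57BL/6J mice (0.21, adjusted p = 0.125), the IL-1R1 eRestore mice (0.17, adjusted p = 0.345) or the IL-1R1 nRestore mice (0.18, adjusted p = 0.0504). At 9 h Tgfbr2 had a log2 fold change of 0.10 (SE 0.06, adjusted p = 0.238) and at 24 h of 0.08 (SE 0.06, adjusted p = 0.577).

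Tgfbr1, the subunit that phosphorylates SMAD proteins, did not pass the test at any single time. Its medians were 43.5 CPM in sham and 41.4 CPM in CHI mice at 9 h (log2 fold change -0.10, SE 0.04, adjusted p = 0.0970), 38.3 and 41.2 CPM at 24 h (0.05, SE 0.03, adjusted p = 0.477), and 41.2 and 44.4 CPM at 72 h (0.11, SE 0.03, adjusted p = 0.128). At 72 h 16 of 44 CHI mice were above every sham mouse. The change of its effect over time did pass, since the effect at 9 h was lower than that at 24 h by 0.15 on the log2 scale (SE 0.05, adjusted p = 0.0450) and lower than that at 72 h by 0.21 (SE 0.05, adjusted p = 0.00176). The first of these calls was lost with no filter on low counts (adjusted p = 0.0782) and with the experiment in place of age (-0.14, adjusted p = 0.0692).

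**Figure D2:**
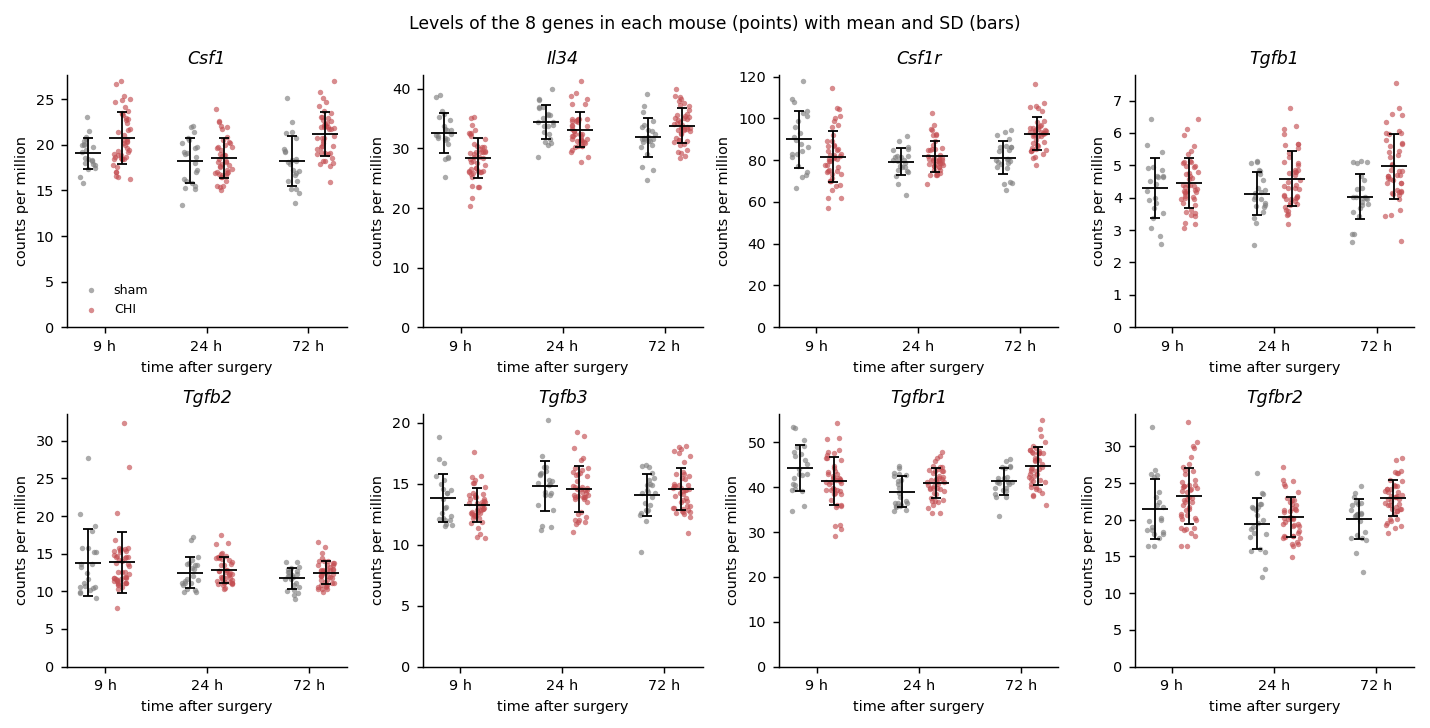
CPM of each gene in each of 200 mice (points; grey, sham; red, CHI) at 9, 24 and 72 h, with the mean (line) and SD (bars) of all 4 strains together. CHI and sham mice overlap for every gene, with CHI lower for Il34 and Csf1r at 9 h and higher for Csf1, Csf1r, Tgfb1 and Tgfbr2 at 72 h.

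Counted over the 8 genes, 2 fell and 0 rose at 9 h, beside 23.9% of 18741 genes called in either direction (11.9% lower). At 24 h 0 of the 8 were called by edgeR or by DESeq2 (1 at an unadjusted p under 0.05), beside 1.48% of 18495 genes. At 72 h 4 rose and 0 fell, beside 0.706% of 18408 genes called (0.679% higher). All 8 log2 fold changes were positive at 72 h, with a median of 0.15 against 0.00 over all genes tested. The 8 genes, like the lists used below, were chosen with earlier results of these data known. Their counts beside all genes therefore describe the chosen genes and are no independent test of them. The difference of the CHI effect between 9 and 24 h was called for 2 of the 8 genes (10.7% of 20111 genes) and that between 9 and 72 h for 3 (13.1%). Between 24 and 72 h it was called for 0 by edgeR (3 at an unadjusted p under 0.05), beside 0.0348% of genes. These 3 comparisons share mice with each other.

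Within single experiments the differences adjusted for strain are given as values, and no test was run there. At 72 h Csf1, Csf1r, Tgfb1, Tgfbr1 and Tgfbr2 were higher after CHI in 4 of 4 experiments, with log2 differences from 0.09 to 0.61 for Csf1 and from 0.14 to 0.60 for Csf1r. The highest value of both came from an experiment with 2 CHI and 1 sham mice, where it rests on 1 CHI and 1 sham mouse of the same strain. At 9 h Il34 (-0.26 to -0.16) and Csf1r (-0.19 to -0.10) were lower in 3 of 3 experiments, as was Tgfbr1. Csf1, Tgfb1 and Tgfbr2 were higher in 3 of 3, and neither these genes nor Tgfbr1 passed the test at 9 h. At 24 h surgery was unevenly spread, with 18 CHI and 1 sham mice in 1 experiment and 8 and 12 in another. Il34 was then lower (-0.13 to -0.08) and Tgfb1 higher (0.02 to 0.33) in 3 of 3 experiments, while the other genes went both ways. The highest Tgfb1 value came from the experiment with 1 sham mouse.

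In the single strains, with fewer mice, the test passed 1 of the 8 genes in 1 of 12 comparisons. Il34 in C57BL/6J mice at 9 h ranged from 25.2 to 36.3 CPM in 6 sham mice (median 33.2) and from 21.7 to 30.8 CPM in 15 CHI mice (median 26.2). The groups overlapped, and the log2 fold change was -0.28 (SE 0.06, adjusted p = 0.00395), beside 14.1% of genes called in that comparison. In the other strains at 9 h the log2 fold changes of Il34 were -0.19 (SE 0.08, IL-1R1 gKO), -0.17 (SE 0.08, IL-1R1 eRestore) and -0.15 (SE 0.09, IL-1R1 nRestore), with adjusted p-values from 0.169 to 0.501. The differences of these effects from that of C57BL/6J mice were 0.08 (95% interval -0.12 to 0.29), 0.10 (-0.10 to 0.31) and 0.17 (-0.07 to 0.41), and none passed the test.

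At 72 h the log2 fold change of Csf1r was 0.18 (SE 0.07) in C57BL/6J, 0.15 (SE 0.07) in IL-1R1 gKO, 0.23 (SE 0.05) in IL-1R1 eRestore and 0.15 (SE 0.08) in IL-1R1 nRestore mice, and no strain passed the test alone (adjusted p from 0.417 to 1.00). Its 12 CHI mice of IL-1R1 eRestore lay between 88.5 and 105.8 CPM and its 6 sham mice between 69.7 and 90.0 CPM. Csf1 at 72 h differed more in size, at 0.31 (SE 0.06) in C57BL/6J, 0.20 (SE 0.10) in IL-1R1 gKO, 0.03 (SE 0.10) in IL-1R1 eRestore and 0.31 (SE 0.10) in IL-1R1 nRestore mice. In C57BL/6J mice Csf1 ran from 16.7 to 20.7 CPM in sham (median 17.2) and from 17.9 to 25.8 CPM in CHI (median 22.4), with an adjusted p of 0.116 by edgeR. Csf1 passed there by DESeq2 with its own size factors (0.31, adjusted p = 0.00635) or with gene-length offsets (0.36, adjusted p = 0.00426), and by edgeR with the experiment in place of age (0.32, adjusted p = 0.0454). The difference between the effects of IL-1R1 eRestore and C57BL/6J on Csf1 was -0.28 (95% interval -0.52 to -0.04, adjusted p = 1.00 by edgeR over all genes). Tgfb1 had log2 fold changes from 0.24 to 0.29 in the 4 strains at 72 h (SE 0.12 to 0.17).

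The percentages of genes called were 0.404% at 24 h and 0% at 72 h in C57BL/6J mice. They were 0.199%, 0.0059% and 0% in IL-1R1 gKO, 7.34%, 0% and 0.00605% in IL-1R1 eRestore, and 0.608%, 0% and 0.0121% in IL-1R1 nRestore mice at 9, 24 and 72 h. In each of these 11 comparisons 0 of the 8 genes were called by edgeR with sex and age as covariates, with 0 to 4 at an unadjusted p under 0.05. At 72 h the log2 fold changes of all 8 genes were positive in C57BL/6J, IL-1R1 gKO and IL-1R1 nRestore mice, and 7 of 8 in IL-1R1 eRestore mice.

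**Figure D3:**
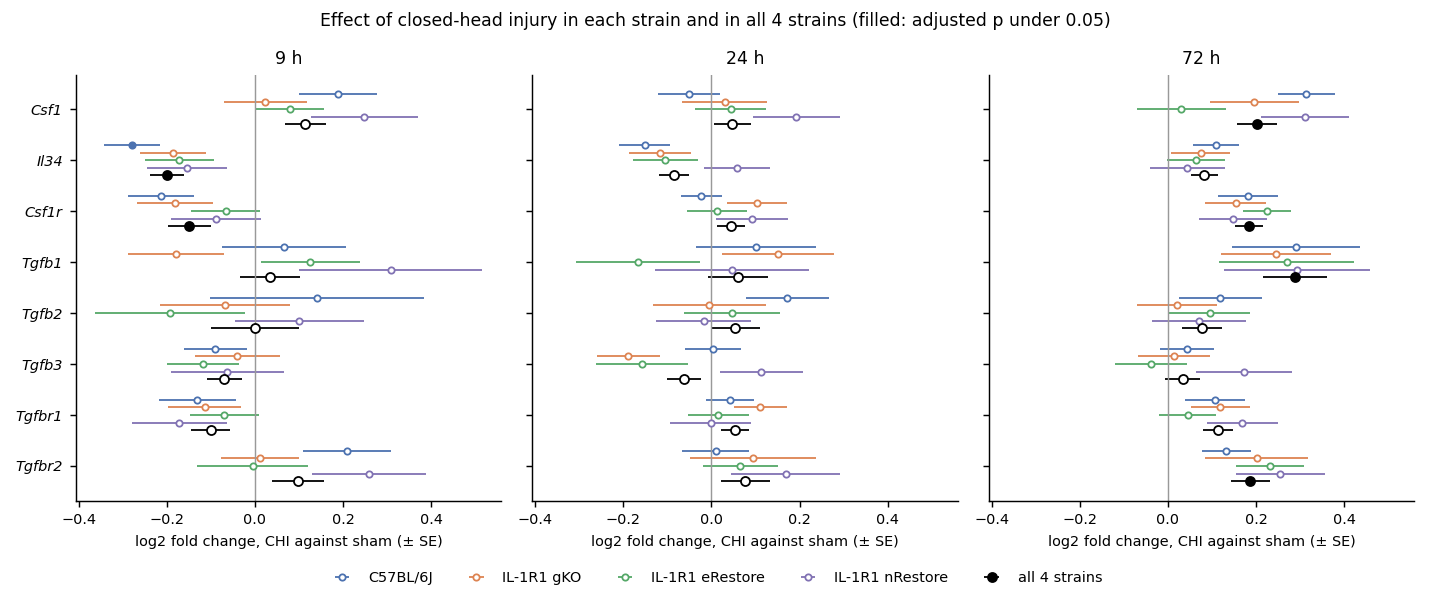
Log2 fold change of CHI against sham (points, with SE as bars) for each gene in each strain and in all 4 strains together (black), at 9, 24 and 72 h. Filled points have an adjusted p under 0.05; these are Il34 in C57BL/6J mice at 9 h, and over all strains Il34 and Csf1r at 9 h and Csf1, Csf1r, Tgfb1 and Tgfbr2 at 72 h.

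The effect of CHI was not shown to differ between strains or sexes for any of the 8 genes. Of the strain differences, taken over the 4 strains or against C57BL/6J, 0 were called at 9, 24 or 72 h (lowest adjusted p = 0.532). Over all 4 strains the percentages of genes whose effect differed were 0.00534% (9 h), 0.00541% (24 h) and 0.00543% (72 h). Against C57BL/6J at 9, 24 and 72 h, the percentages of genes called were 0%, 0.00541% and 0% for IL-1R1 gKO, 0.0107%, 0.0108% and 0% for IL-1R1 eRestore, and 0.00534%, 0% and 0.00543% for IL-1R1 nRestore mice. At an unadjusted p under 0.05 there were 0 at 9 h, 2 at 24 h for each of IL-1R1 gKO and IL-1R1 nRestore against C57BL/6J, and 1 at 72 h for IL-1R1 eRestore against C57BL/6J. The difference of the CHI effect between female and male mice was called for 0 of the 8 genes at each time (lowest adjusted p = 0.918), beside 0%, 0% and 0.00543% of genes, with 1 of the 8 at an unadjusted p under 0.05, at 24 h. IL-1R1 nRestore mice were unevenly split by sex, with 0 females at 72 h and 1 CHI male at each of 9 and 24 h. The male effect at 72 h thus included a strain that the female effect did not.

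Sham mice were compared between strains for the level without injury. Tgfb3 at 24 h ran from 11.2 to 14.1 CPM in 5 IL-1R1 nRestore sham mice (median 11.5) and from 15.1 to 17.3 CPM in 6 C57BL/6J sham mice (median 16.0), with no overlap. The log2 difference was -0.39 (SE 0.09, adjusted p = 0.0184), beside 1.86% of genes called. Those strains came partly from different experiments, and with the experiment in the fit the difference was -0.34 with an adjusted p of 0.229, so that 0 genes of the 8 were called. In the other 8 comparisons of sham mice 0 of the 8 genes were called by edgeR, with 1 of the 8 at an unadjusted p under 0.05 at 72 h in IL-1R1 nRestore mice. The percentages of genes called against C57BL/6J at 9, 24 and 72 h were 0.398%, 1.46% and 0.139% for IL-1R1 gKO and 0.866%, 0.246% and 0.202% for IL-1R1 eRestore mice, and for IL-1R1 nRestore mice they were 1.26% at 9 h and 0.277% at 72 h.

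In bulk tissue, fewer microglia and less RNA per microglial cell cannot be told apart. Of the 10 microglia markers, 7 fell at 9 h, beside 11.9% of all genes lower (median log2 fold change of the list -0.26), among them Olfml3 (-0.72, SE 0.10), P2ry12 (-0.62, SE 0.09), Siglech (-0.38, SE 0.06) and Sall1 (-0.27, SE 0.05). None of the 10 was called at 24 h by edgeR, beside 1.48% of all genes, and 5 rose at 72 h, beside 0.679% of all genes higher (median 0.19), among them Olfml3 (0.51, SE 0.07), Cx3cr1 (0.20, SE 0.04) and Fcrls (0.77, SE 0.17). The summed level of the list ran at 9 h from 253 to 434 CPM in sham (median 311) and from 170.8 to 370.2 CPM in CHI mice (median 278), and at 72 h from 272 to 377 CPM in sham (median 309) and from 293 to 535 CPM in CHI mice (median 363). Relative to the mean of the 10 markers, on the log2 CPM scale, Csf1r was at 1.94 ± 0.13 in sham and 2.13 ± 0.18 in CHI mice at 9 h (SD, n = 22 and 46) and at 1.83 ± 0.18 and 1.75 ± 0.17 at 72 h (n = 23 and 44). Tgfb1 relative to the same markers was at -2.45 ± 0.29 in sham and -2.06 ± 0.24 in CHI mice at 9 h, and at -2.50 ± 0.30 and -2.49 ± 0.24 at 72 h. Among markers of other cell types at 9 h, 2 of 6 astrocyte markers rose (Gfap 0.79, SE 0.11, and Aldh1l1 0.31, SE 0.04). Of 5 endothelial markers 2 rose and 1 fell, and of 6 markers of mural cells and fibroblasts 3 rose and 1 fell. Of 6 neuron markers 1 rose and 0 fell, and their summed level had medians of 7992 CPM in sham and 8722.5 CPM in CHI mice. These counts stand beside 23.9% of all genes called in either direction. At 72 h Gfap (0.69, SE 0.09) and the fibroblast gene Col1a1 (0.62, SE 0.14) rose, while the summed endothelial markers had medians of 198.63 CPM in sham and 193.03 CPM in CHI mice. The part of these markers in the results for Csf1r, Tgfb1, Tgfbr2 and the other genes was not tested. At 9 h all 4 choroid plexus markers fell (median log2 fold change -1.71), beside 11.9% of all genes lower. Their sum overlapped widely, from 9.00 to 3479 CPM in sham and from 3.78 to 1646 CPM in CHI mice. Within C57BL/6J, IL-1R1 gKO or IL-1R1 eRestore mice at 9 h, 0 of the 4 were called. The source of this difference was not tested. Without the 9 CHI and 7 sham mice over 100 CPM in these markers at that time Il34, Csf1r, Tgfbr1 and Tgfbr2 were called.

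The genes around these ligands and receptors were taken from 5 lists of 48 genes in all, of which 47 were tested at each time over all strains. At 9 h 7 rose and 11 fell (beside 23.9% of all genes called), at 24 h 0 were called by edgeR (beside 1.48%), and at 72 h 3 rose and 0 fell (beside 0.706%). In the list of CSF1 receptor signalling (10 genes), Grb2, an adaptor of receptor tyrosine kinases, rose at 9 h (0.14, SE 0.03, adjusted p = 2.59e-05), as did the transcription factor Runx1 (0.52, SE 0.12), while the kinase Syk fell (-0.20, SE 0.07). The 3 genes that rose at 72 h were all in this list. They were Inpp5d, a phosphatase of blood cells and microglia (0.26, SE 0.05, adjusted p = 0.000205), Irf8, a transcription factor of myeloid cells (0.29, SE 0.07, adjusted p = 0.0102), and Tyrobp, the adaptor of TREM2 (0.43, SE 0.10, adjusted p = 0.0120).

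Of 12 tested genes for the storage and release of latent TGF-beta, 6 fell and 1 rose at 9 h (median -0.18), beside 23.9% of all genes called in either direction. Itgb8, a subunit of an integrin that releases active TGF-beta, fell by 0.31 on the log2 scale (SE 0.04, adjusted p = 1.62e-08), Ltbp4, a latent TGF-beta binding protein, fell by 0.33 (SE 0.05, adjusted p = 5.25e-08), and Itgb5 fell by 0.17 (SE 0.04). Nrros, which holds latent TGF-beta1 on microglia, rose by 0.66 (SE 0.12, adjusted p = 4.06e-05). Of 6 co-receptors and decoys, Lrg1, a secreted modulator of TGF-beta signalling, rose by 0.88 (SE 0.19) and Bambi, a decoy receptor, by 0.38 (SE 0.10).

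Among 11 SMAD transducers and regulators at 9 h, Smad3, a SMAD activated by the receptor, rose by 0.43 (SE 0.05, adjusted p = 5.03e-09). The inhibitor Smad7 fell by 0.37 (SE 0.06, adjusted p = 4.97e-07), and the ubiquitin ligase Smurf2 fell by 0.21 (SE 0.04). Of 8 TGF-beta target genes, 1 rose and 2 fell at 9 h (median -0.11, range -0.43 to 0.90), again beside 23.9% of all genes. Pmepa1 fell by 0.43 (SE 0.04, adjusted p = 7.16e-12) and Klf10 fell by 0.22 (SE 0.08, adjusted p = 0.0271). At 72 h 0 of the 37 tested genes in the 4 TGF-beta lists were called by edgeR, beside 0.706% of all genes.

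**Figure D4:**
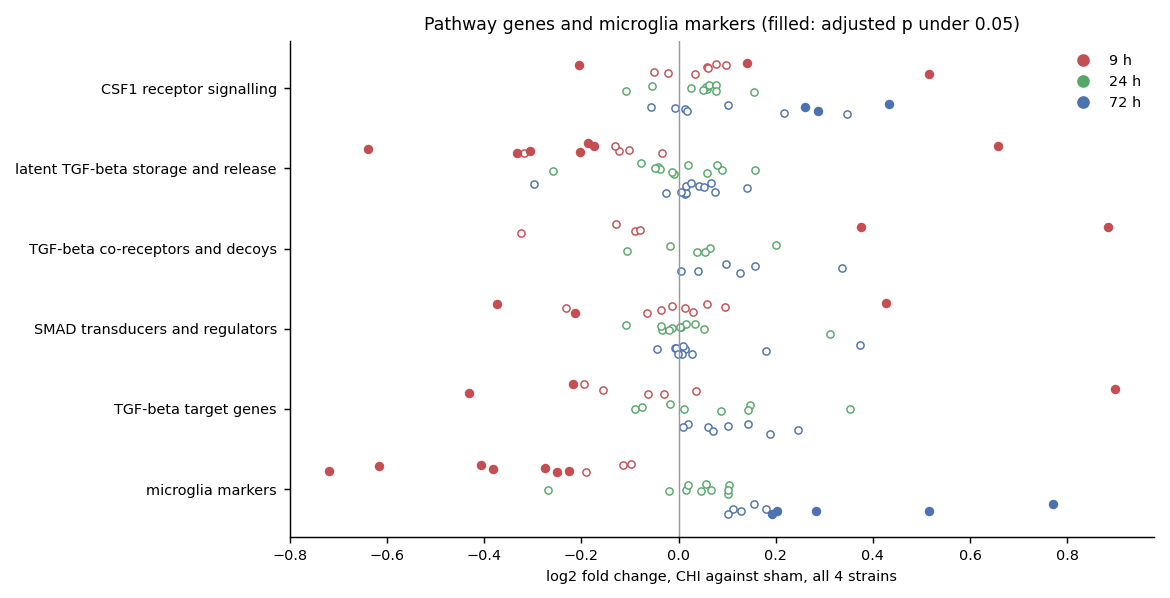
Log2 fold change of CHI against sham over all 4 strains for the genes of 5 pathway lists and 10 microglia markers (points; red, 9 h; green, 24 h; blue, 72 h; filled, adjusted p under 0.05). At 9 h called genes lie on both sides of 0, with 7 microglia markers lower, and at 72 h the called genes are 3 of CSF1 receptor signalling and 5 microglia markers, all higher.

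The 8 genes also varied between mice of the same group, and each was set beside the 13386 genes with at least 10 counts in every mouse after group means were removed. These correlations share the library and its depth and are given as a description over 200 mice. Csf1r was closest to Laptm5 (Pearson r = 0.77), Grn (0.71) and Actg1 (0.66), and Tgfb1 to Laptm5 (0.49), Tagln2 (0.46) and Grn (0.46). Tgfbr1 was closest to Mpeg1 (0.57) and Csf1r (0.52), whereas Tgfbr2 was closest to Cdh5 (0.65), an endothelial cadherin, Pdcd6ip (0.60) and Nid1 (0.60). Csf1 was closest to Akap12 (0.52), Stat3 (0.51) and Ddr1 (0.51), and among the genes closest to Il34 were Dusp14 (0.52) and Pld3 (0.50). Among the genes closest to Tgfb2 were Car12 (0.57) and Htr2c (0.57), and Tgfb3 was closest to Dnajb5 (0.47), Taf15 (0.46) and Niban2 (0.44). Between the 8 genes themselves, the highest r values were those of Csf1r with Tgfbr1 (0.52), Il34 with Csf1r (0.45) and Csf1 with Tgfbr2 (0.44), and the lowest was that of Csf1 with Tgfbr1 (-0.16).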

How the data were processed

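One hemisphere per mouse was sequenced from poly(A)-selected libraries. The authors trimmed the reads, mapped them with STAR to the GRCm39 genome and used Salmon for quantification. The authors deposited estimated counts, which are not normalized, and TPM values, which Salmon scales for transcript length and library size. The annotation release and strandedness are not given in the sources used here. Strain, surgery, time, sex, age and experiment were taken from the labels, and no column was left out.

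The deposited estimated counts, rounded to whole numbers, entered edgeR 4.0.16 (R 4.3.3), with TMM factors and the robust quasi-likelihood F test. A gene was kept where 10 counts or more were reached by a number of mice equal to the smallest group. Sex and age were covariates, plus strain where strains were fitted together. Sex was left out for IL-1R1 nRestore mice at 72 h, which were all male. Sham mice of different strains were compared with sex as the covariate. Benjamini-Hochberg adjustment covered all genes tested, with a threshold of 0.05. CPM values use TMM library sizes, and log2 CPM a prior count of 1. Standard errors came from the F statistics. P-values measure the spread between mice, and mice of different experiments were treated as independent. The main fits had no term for the experiment, which entered only in alternatives. Total counts per mouse (14857985 to 57355676) leave little counting error except for Tgfb1.

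The genes named are the 8 ligands and receptors, the called genes of each pathway or marker list over all strains (at most 4 with the smallest p per list and time), the 3 genes that correlate best with each of the 8, and Il1r1. Some genes that this rule names are not reported here. The 8 genes and the lists were chosen with earlier results of these data known. Alternatives were DESeq2 1.42.0 with its own size factors or with gene-length offsets, no filter, no sex or age, the experiment in place of age, RLE factors, and leaving out mice or strains. On simulated data for C57BL/6J mice at 24 h, edgeR recovered 98 of 100 genes changed by 1 on the log2 scale and 63 of 100 changed by 0.5. For IL-1R1 nRestore mice at 9 h it recovered 87 and 28. False calls by edgeR among unchanged genes numbered 3 for C57BL/6J and 6 for IL-1R1 nRestore mice. The simulation gave every gene the same spread between mice. The fitted log2 fold changes of CHI against sham for the 8 genes were under 0.5 in size, and changes that small were not simulated.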

Additional observations from a re-analysis of the deposited data

Results flagged for a closer look

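The CHI effect differed between time points, by a test of the difference itself, for 3 of the 8 genes. These tests called 10.7% (9 against 24 h) and 13.1% (9 against 72 h) of all genes. The effect at 9 h minus that at 24 h was -0.18 for Csf1r and -0.15 for Tgfbr1 on the log2 scale, and the call of Tgfbr1 was lost with no filter on low counts and with the experiment in place of age. The effect at 9 h minus that at 72 h was -0.33 for Csf1r, -0.27 for Il34 and -0.21 for Tgfbr1. The mice at 9 h came from other experiments than those at 24 and 72 h. No explanation was tested.

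Single mice stood apart from their group in 15 of 128 tests of 1 gene in a group of 4 to 10 mice, by the gap to the nearest mouse divided by the range of the group. Chance alone gives about 1 in 20. Of the 15, 11 were in IL-1R1 nRestore groups, which took 48 of the 128 tests, since the larger CHI groups of other strains were not tested. Among sham mice of that strain at 72 h, replicate 5 was lowest for both Il34 (24.7 CPM against 31.6 to 32.4 in the others) and Tgfb1 (2.64 CPM against 3.97 to 4.31), and replicate 1 was lowest for Tgfb3 (9.39 CPM). Among its sham mice at 9 h, replicate 3 was lowest for Tgfb1 (2.57 CPM) and highest for Tgfb3 (15.0 CPM against 11.6 to 12.0), and replicate 2 was lowest for Il34 (28.2 CPM). Among its CHI mice, replicate 6 at 24 h was highest for Il34 (39.3 CPM) and Csf1r (92.0 CPM) and had a choroid plexus sum of 646 CPM. At 72 h replicate 3 was highest for Tgfb1 (6.35 CPM) and replicate 6 for Tgfb3 (17.3 CPM), and at 9 h replicate 1 was lowest for Tgfbr1 (31.3 CPM) with a choroid plexus sum of 1352 CPM. In IL-1R1 eRestore mice, Tgfb1 was lowest in sham replicate 4 at 9 h (3.37 CPM), Tgfb3 highest in CHI replicate 2 at 24 h (17.9 CPM) and Tgfbr1 lowest in sham replicate 4 at 72 h (33.5 CPM). In C57BL/6J mice, Csf1r was highest in sham replicate 6 at 24 h (91.5 CPM against 75.0 to 80.1).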

How the results depend on the processing

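Over all strains, the fall of Il34 at 9 h kept its call in all 11 alternatives. The count of the 8 genes called at 9 h was 2, and became 1 (Il34) without the C57BL/6J mice and 4 without the mice with most choroid plexus RNA, a setting chosen after seeing the data. It stayed at 2 with other genes when Csf1r lost its call, as Tgfbr1 (adjusted p = 0.0459) gained one by DESeq2 with gene-length offsets and Csf1 (adjusted p = 0.0486) without the mice labelled IL-1R1 gKO. At 72 h the 4 calls became 1 (Csf1r) without the C57BL/6J mice, 2 (Csf1 and Csf1r) without the IL-1R1 eRestore mice and 1 (Csf1r) without the IL-1R1 nRestore mice. Csf1r itself lost its call at 72 h by DESeq2 with gene-length offsets (adjusted p = 0.399), an approach that the authors also used. Tgfb1 lost its call there without the mice labelled IL-1R1 gKO. The difference between 9 and 24 h was called for 1 gene, Csf1r, instead of 2 with no filter on low counts and with the experiment in place of age. That between 9 and 72 h was called for 3 to 4 genes. Tgfb1 (-0.25, adjusted p = 0.0687 by edgeR) passed there in 1 of 4 alternatives. In C57BL/6J mice at 72 h, 1 gene (Csf1) instead of 0 was called by DESeq2 with its own size factors, by DESeq2 with gene-length offsets and with the experiment in place of age. In C57BL/6J mice at 9 h, leaving out one sham mouse at a time gave 1 to 3 called genes, with Il34 in each; Csf1r was added without sham replicate 3, and Csf1r and Tgfbr2 without sham replicate 4. The call of the sham difference of Tgfb3 at 24 h was lost with the experiment added, leaving 0 genes, at a log2 difference of -0.34 against -0.39. The cause of these changes was not tested.

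The sign turned only for values near 0 that no test called. The log2 fold change of Tgfb2 at 9 h became -0.0028 by DESeq2, -0.0034 with strain as the only covariate, -0.0086 with the experiment in place of age, -0.0042 with RLE factors, -0.054 without C57BL/6J and -0.048 without IL-1R1 nRestore mice, and at 24 h -0.010 without C57BL/6J mice. Tgfb1 at 9 h became -0.011 without IL-1R1 eRestore mice and -0.0082 without the mice with most choroid plexus RNA, and Tgfb3 at 72 h became -0.0084 without IL-1R1 nRestore mice.

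The count of all genes called was over all strains 4483 (2258 to 5156) at 9 h, 274 (42 to 471) at 24 h and 130 (53 at the lowest) at 72 h. Within strains it ranged at 9 h from 1844 to 2858 in C57BL/6J (2385 as reported), 21 to 218 in IL-1R1 gKO (33), 736 to 1991 in IL-1R1 eRestore (1222) and 97 to 806 in IL-1R1 nRestore (102). Leaving out one mouse at a time, in groups of at most 8 mice only, gave 1790 to 2400, 6 to 54, 554 to 1910 and 12 to 217 in the same order. In C57BL/6J mice it was 67 (51 to 333, and 17 to 53 leaving out one sham mouse) at 24 h and 0 (0 to 41) at 72 h. At the same times it was 0 (0 to 93) and 1 (1 to 16) in IL-1R1 eRestore and 0 (0 to 5) and 2 (2 to 11) in IL-1R1 nRestore mice. In IL-1R1 gKO mice it was 0 (0 to 3) at 72 h and 1 at 24 h, where DESeq2 called 84 genes with gene-length offsets and more with its own size factors. No paired analysis was possible because replicate numbers only follow the order of the deposited samples.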
